A study of Arabidopsis thaliana with 210 samples.

Results

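The 10 genes PDF1, ACR4, FDH, CER6, LACS2, LCR, HTH, BDG, ABCG11 and LTP1 act in the outermost cell layer of the shoot, the epidermis, and in the cuticle that covers it. They were picked by name, and the rule used no measured value, though earlier results of these data were known when the list was made. The members are the rows of these genes in a table of 29696 Arabidopsis genes, of which 29417 are nuclear. All 10 were found, each once.

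The shoot epidermis arises from the L1, the surface layer of the shoot apical meristem, which divides so that its daughters stay at the surface. Homeodomain proteins of the ATML1 family keep L1 identity and bind an element called the L1 box near genes that work there. Epidermal cells build the cuticle from fatty acids: elongated chains become waxes, hydroxylated chains become cutin, and transporters and carrier proteins move both to the outer wall. Loss of several of these genes makes organs stick together or lose water.

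The series asks about ARGONAUTE function in the shoot apical meristem. RNA was measured in 210 wells into which nuclei had been sorted, except for the negative controls, from ecotype Col-0 shoot apices, taken 7 days after germination from seedlings on soil in long days. The wells were 2 bulk wells (1 of p1 and 1 of p2), 20 Smart-seq3 wells with 1 nucleus each (8 of p1 and 12 of p2), 93 p1 and 93 p2 Smart-seq2 wells with 1 nucleus each and 2 p2 negative control wells without a nucleus. Both protocols copy whole transcripts, and the bulk and negative control wells also went through Smart-seq2. No treatment, mutation or reporter line is given for any group, the meaning of p1 and p2 is not stated, and the table has a row for an mCherry reporter whose promoter the labels do not name. A bulk well held 50 nuclei by its label, whereas its column name carries the number 10. No plant, pool or sort is named for a nucleus, so each group counts as 1 sample, no test between groups was made, and all intervals are 95% intervals of counting error only.

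Totals on genes were 1945890 counts in the p1 bulk well and 1253317 in the p2 bulk well. Smart-seq3 nuclei had medians of 55305 counts in p1 and 605497 in p2. Smart-seq2 nuclei had medians of 1310185 counts in p1 (range 1362 to 8102382) and 375146 in p2 (range 153 to 1236901), and 57 p1 and 81 p2 nuclei reached 50000 counts. The negative control wells held 7953 and 8676 counts, more than the median of 6023 counts of the 36 p1 Smart-seq2 nuclei under 50000. Every label gives stem cells as the cell type. At 5 counts or more, the stem cell gene CLV3 was present in 15 of 93 p1 nuclei (16.1%, 9.32 to 25.2%), 5 of 93 p2 nuclei (5.38%, 1.77 to 12.1%), 3 p2 Smart-seq3 nuclei and no p1 Smart-seq3 nucleus. WUS, which marks the organising centre beneath the stem cells, reached 5 counts in 1 p1 and 2 p2 Smart-seq2 nuclei. RBCS1A, a small subunit of Rubisco and a marker of green tissue, reached it in 93 p1 and 87 p2 Smart-seq2 nuclei. Most nuclei thus lacked the defining markers of the labelled cell type at this count.

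Promoter windows of the members are shown first, since PDF1, FDH and ABCG11 carry an L1 box there. The box was searched as TAAATGCA or TAAATGTA on both strands, from 250 bases before to 50 bases after each annotated gene start. It occurred in 3 of the 10 members (30%) and in 1369 of 26706 promoters of the genome (5.13%). In PDF1 it lay 31 to 38 bases after the start. In FDH it lay 54 to 47 bases before the start, and ABCG11 had boxes 82 to 75 and 47 to 40 bases before its start. The other 7 members had neither spelling in the window, from which nothing follows about the factors that bind them. The lines below give the PDF1 site of 30 bases and the 250 bases before the starts of FDH, ABCG11 and, as a member without a box, LACS2, from the RefSeq assembly TAIR10.1, with L1 boxes in capitals. PDF1 and FDH lie on the minus strand, ABCG11 and LACS2 on the plus strand, and each is written 5′ to 3′ on its gene's strand.
PDF1 at chr2:17827600-17827629: atgggatagtgTAAATGCAcctgcaacaca
FDH at chr2:11173279-11173528: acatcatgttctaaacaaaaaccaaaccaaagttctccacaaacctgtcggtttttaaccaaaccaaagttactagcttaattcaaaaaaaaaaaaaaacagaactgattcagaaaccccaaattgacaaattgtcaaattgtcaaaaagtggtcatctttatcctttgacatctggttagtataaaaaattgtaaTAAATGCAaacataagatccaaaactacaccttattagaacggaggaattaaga
ABCG11 at chr1:6142152-6142401: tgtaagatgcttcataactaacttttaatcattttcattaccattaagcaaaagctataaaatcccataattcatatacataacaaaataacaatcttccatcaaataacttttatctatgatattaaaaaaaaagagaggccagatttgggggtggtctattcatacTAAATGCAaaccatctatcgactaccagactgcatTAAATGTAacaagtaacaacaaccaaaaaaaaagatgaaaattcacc
LACS2 at chr1:18290692-18290941: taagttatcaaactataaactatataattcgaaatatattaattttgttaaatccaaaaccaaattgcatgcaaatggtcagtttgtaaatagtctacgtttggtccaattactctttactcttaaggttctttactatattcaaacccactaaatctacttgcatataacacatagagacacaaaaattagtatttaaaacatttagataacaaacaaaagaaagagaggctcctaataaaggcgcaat

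A nucleus was taken to hold a gene from 5 counts, because the members had 1 to 4 counts in a further 10 to 35 of the 93 p1 Smart-seq2 nuclei and 2 to 19 of the p2 nuclei. Levels are given as CPM, counts scaled to the same total on genes in every well. In the negative control wells, LTP1 had 2 counts in each well, CER6 had 0 and 2, and the other 8 members had 0. In both bulk wells all 10 members reached 5 counts, with summed levels of 3354 CPM in p1 and 3645.5 CPM in p2.

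PDF1 (AT2G42840, chromosome 2), a proline-rich wall protein made in the protoderm, and ACR4 (AT3G59420, chromosome 3), a receptor-like kinase of L1 cells, represent epidermal identity and signalling. PDF1 was held by 2 of 8 p1 and 6 of 12 p2 Smart-seq3 nuclei. Of the Smart-seq2 nuclei, 72 of 93 held it in p1 (77.4%, 67.6 to 85.4%) and 46 of 93 in p2 (49.5%, 38.9 to 60%). These intervals do not overlap, and among nuclei of at least 50000 counts the shares were further apart, 94.7% in p1 and 53.1% in p2. The share of all genes with p1 and p2 intervals apart is not given here, so the gap cannot be called particular to PDF1. The PDF1 level ran from 0 through a median of 648 to 11713 CPM over p1 nuclei, and from 0 through 58.9 to 14609 CPM over p2 nuclei. In p2 the gene was either high or near absent: the 46 nuclei that held it had a median of 3165 CPM, and 28 nuclei had no count. In p1 the 72 nuclei that held it had a median of 828 CPM, and 3 nuclei had no count. Bulk levels were 1151 CPM in p1 and 1661 CPM in p2.

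ACR4 was the rarest member in Smart-seq2 nuclei. It was held by 1 of 8 p1 and 1 of 12 p2 Smart-seq3 nuclei, 6 of 93 p1 Smart-seq2 nuclei (6.45%, 2.4 to 13.5%) and 9 of 93 p2 nuclei (9.68%, 4.52 to 17.6%). Its bulk levels were 8.74 CPM in p1 and 16.8 CPM in p2. All 15 Smart-seq2 nuclei that held ACR4 also held PDF1, beside 94.7% of all p1 and 53.1% of all p2 nuclei of at least 50000 counts. A single p1 nucleus, replicate 42, gave 6405 counts, or 78.4% of all ACR4 counts of its group. The same nucleus gave 66872 counts of PDF1 (34.9% of the group) and 2649 of HTH (17.9%), at a total of 5709261 counts.

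FDH and CER6 are ketoacyl-CoA synthases, the enzymes that lengthen fatty acids; FDH keeps organ surfaces from fusing, and CER6 makes the long chains of stem wax. FDH (AT2G26250, chromosome 2) was held by 2 of 8 p1 and 6 of 12 p2 Smart-seq3 nuclei, 46 of 93 p1 Smart-seq2 nuclei (49.5%, 38.9 to 60%) and 34 of 93 p2 nuclei (36.6%, 26.8 to 47.2%). Among nuclei of at least 50000 counts, its shares were 73.7% in p1 (60.3 to 84.5%) and 42% in p2 (31.1 to 53.5%), and these intervals do not overlap. These p1 nuclei were deeper, with a median total of 2023182 counts against 414894 in p2. In nuclei thinned to 4200 counts, with 1 count in place of 5, the intervals overlap. FDH shares were then 51.2% in p1 (39.9 to 62.4%) and 34.9% in p2 (24.8 to 46.2%). Its level ran from 0 through a median of 223 to 1536 CPM over p1 nuclei and from 0 through a median of 0 to 5291 CPM over p2 nuclei, the last from 1 count in a well of 189 counts, with 4191 CPM as the highest in p2 nuclei of at least 50000 counts. As with PDF1, the FDH share was thus higher in p1, though its intervals overlap over all nuclei and in thinned nuclei. The nuclei that held FDH had a lower median in p1 (293 CPM) than in p2 (786 CPM). The bulk levels were close, 361 CPM in p1 and 342 CPM in p2.

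CER6 (AT1G68530, chromosome 1) was held by no p1 and 2 of 12 p2 Smart-seq3 nuclei, 29 of 93 p1 Smart-seq2 nuclei (31.2%, 22 to 41.6%) and 27 of 93 p2 nuclei (29%, 20.1 to 39.4%). Its medians were 0.57 CPM in p1 and 0 in p2, with highest values of 1649 and 1124 CPM. The p1 and p2 shares lie within each other's intervals. Bulk levels were 113 CPM in p1 and 63.8 CPM in p2. Its close copy CER60 was held by 7 p1 and 9 p2 nuclei.

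LACS2, LCR, HTH and BDG serve the cutin polymer. LACS2 (AT1G49430, chromosome 1) activates fatty acids as CoA esters, LCR (AT2G45970, chromosome 2) is a cytochrome P450 that hydroxylates their ends, HTH (AT1G72970, chromosome 1) is a predicted oxidoreductase whose loss fuses floral organs, and BDG (AT1G64670, chromosome 1) is a hydrolase of the outer epidermal wall. LACS2 was held by no p1 and 2 of 12 p2 Smart-seq3 nuclei, and by 17 p1 (18.3%, 11 to 27.6%) and 21 p2 Smart-seq2 nuclei (22.6%, 14.5 to 32.4%). LCR was held by no p1 and 2 of 12 p2 Smart-seq3 nuclei, and by 14 p1 (15.1%, 8.48 to 24%) and 15 p2 Smart-seq2 nuclei (16.1%, 9.32 to 25.2%). BDG was held by no p1 and 1 of 12 p2 Smart-seq3 nuclei, and by 19 p1 (20.4%, 12.8 to 30%) and 20 p2 Smart-seq2 nuclei (21.5%, 13.7 to 31.2%). These 3 genes were in about as many p1 as p2 Smart-seq2 nuclei, and the intervals overlap. HTH was the exception, with 21 p1 (22.6%, 14.5 to 32.4%) and 33 p2 Smart-seq2 nuclei (35.5%, 25.8 to 46.1%), though its intervals overlap too and the shares were 36.8% in p1 and 39.5% in p2 among nuclei of at least 50000 counts. No Smart-seq3 nucleus held HTH, which allows shares of up to 36.9% in p1 and 26.5% in p2.

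Medians over all Smart-seq2 nuclei were at or near 0 for all 4 cutin genes, since most nuclei lacked them. Highest single-nucleus levels were 861 CPM in p1 and 858 CPM in p2 for LACS2, 1391 and 788 CPM for LCR, 1139 and 2627 CPM for HTH, and 1084 and 989 CPM for BDG. In bulk wells LACS2 had 51.9 CPM in p1 and 164 CPM in p2, HTH 109 and 130 CPM, BDG 86.3 and 51.1 CPM, and LCR 59.6 and 40.7 CPM. BDG shares 38 bases with a gene on the opposite strand, and strand-specific counting is not stated in the sources used here.

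ABCG11 and LTP1 work in export. ABCG11 (AT1G17840, chromosome 1), a transporter that carries wax and cutin precursors out of the cell, was held by no p1 and 1 of 12 p2 Smart-seq3 nuclei, 18 of 93 p1 Smart-seq2 nuclei (19.4%, 11.9 to 28.8%) and 14 of 93 p2 nuclei (15.1%, 8.48 to 24%). In nuclei of at least 50000 counts its highest levels were 701 CPM in p1 and 1932.5 CPM in p2. A p2 well of 229 counts reached 4367 CPM from 1 count. The bulk wells had 150 CPM in p1 and 109 CPM in p2. ABCG11 overlaps 2 genes on the opposite strand over 1025 bases, so part of its counts cannot be assigned with certainty.

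LTP1 (AT2G38540, chromosome 2), a secreted lipid transfer protein, was the most widespread member. It was held by 3 of 8 p1 and 11 of 12 p2 Smart-seq3 nuclei, 79 of 93 p1 Smart-seq2 nuclei (84.9%, 76 to 91.5%) and 76 of 93 p2 nuclei (81.7%, 72.3 to 89%). Its level ran from 5.45 through a median of 1101 to 3015 CPM over p1 nuclei and from 0 through 789 to 13113 CPM over p2 nuclei. Unlike PDF1, LTP1 was thus present in nearly all p1 and p2 nuclei of at least 50000 counts (100% and 92.6%). Bulk levels were 1264 CPM in p1 and 1067 CPM in p2. LTP1 lies beside its close copy LTP2, which 25 p1 and 15 p2 nuclei held, and 1.29% of the 31-base stretches of LTP1 exons occur elsewhere in the genome.

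**Figure D1:**
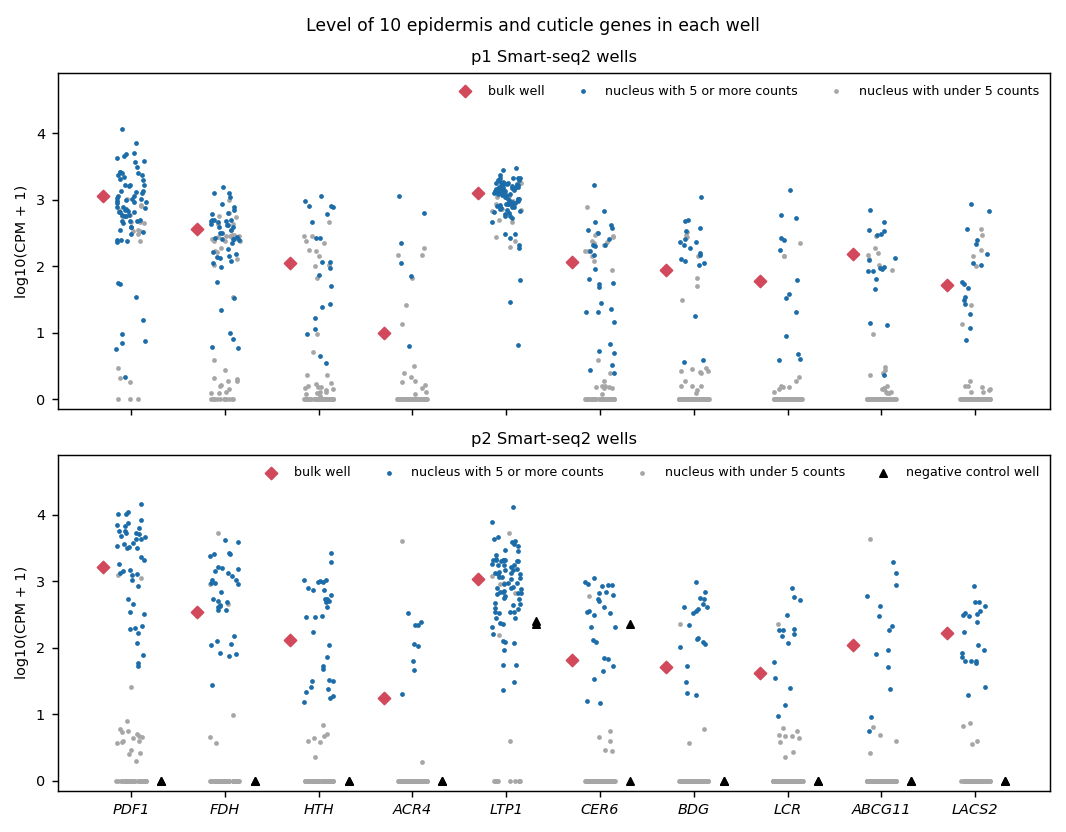
Each point is 1 well and gives log10(CPM + 1) of a gene, with p1 wells above and p2 wells below. Diamonds are bulk wells, blue and grey points are nuclei with 5 or more and under 5 counts, and triangles are negative control wells. In p2 Smart-seq2 nuclei, LTP1 was held by 76 of 93 and PDF1 by 46 of 93.

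**Figure D2:**
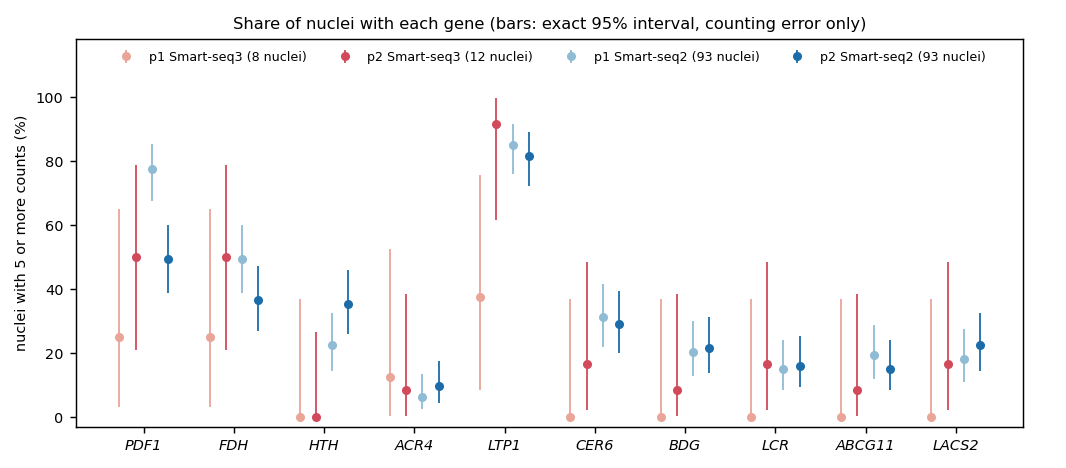
The share of nuclei with 5 or more counts of each gene is given in percent for p1 and p2 Smart-seq3 and p1 and p2 Smart-seq2 nuclei, with exact 95% intervals. LTP1 leads in all 4 groups, and PDF1 is the gene whose p1 and p2 Smart-seq2 intervals do not overlap. The share of all genes with p1 and p2 intervals apart is not given here.

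The median over the 10 members of these shares was 0% in p1 and 16.7% in p2 Smart-seq3 nuclei, and 21.5% in p1 and 25.8% in p2 Smart-seq2 nuclei. Among the 19169 p1 and 20019 p2 nuclear genes held by any Smart-seq2 nucleus, the median was 7.53% in both. LTP1 was among the most widespread of all these genes, with 0.219% of genes in p1 and 0.24% in p2 held at least as often. For PDF1 these percentages were 0.433% in p1 and 1.57% in p2. At the other end was ACR4, with 59.3% in p1 and 43.4% in p2.

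Shallow wells and deep wells differed in how the members were spread. In the 36 p1 Smart-seq2 nuclei under 50000 counts, LTP1 had at least 1 count in all 36 and PDF1 in 33, with median levels of 1194 and 674 CPM, and the LTP1 level lay within 2-fold of the bulk well in 31 of 36. The summed level of all 10 members there ran from 776 through a median of 2298 to 5405 CPM. The negative control wells, which are p2 wells, had 252 and 461 CPM. Plastid and mitochondrial counts made up 74.2 and 82.5% of their totals, against a median of 14.6% over all p1 Smart-seq2 nuclei. CPM is taken of all counts on genes, so these levels are not on a like scale for nuclear genes. In the 12 p2 nuclei under 50000 counts, LTP1 had at least 1 count in 7 and PDF1 in 5. Whether counts pass between wells was not tested. In nuclei of at least 50000 counts, CER6 was held by 45.6% in p1 and 33.3% in p2, BDG by 33.3% and 24.7%, ABCG11 by 31.6% and 17.3%, LACS2 by 29.8% and 25.9%, LCR by 22.8% and 18.5%, and ACR4 by 10.5% and 11.1%. At 5 counts the p1 share was the higher one for these genes other than ACR4. The p1 and p2 intervals overlap for all 6. These p1 nuclei were deeper, with a median total of 2023182 counts against 414894 in p2. Nuclei that reached 4200 counts were also thinned to that number, with 1 count in place of 5. Shares were then 24.4% in p1 and 24.1% in p2 for CER6, 7.32% and 7.23% for LCR, and 9.76% and 14.5% for BDG. ABCG11 had 13.4% and 8.43%, LACS2 13.4% and 9.64%, and ACR4 7.32% and 6.02%. BDG was thus higher in p2 there, and CER6 and LCR were near equal.

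Levels per length ranked the same 4 members at the top in every library. In CPM per kilobase of exon, LTP1 came first and PDF1 second in both bulk wells and both summed Smart-seq2 groups, followed by FDH at rank 3 and HTH at rank 4 in all 4. The p1 bulk well had 1520 per kilobase for LTP1 (1460 to 1581), 822 for PDF1 (789 to 857), 160 for FDH (148 to 172) and 50.3 for HTH (43.7 to 57.5). The p2 bulk well had 1282 for LTP1 (1214 to 1353), 1187 for PDF1 (1137 to 1240), 151 for FDH (137 to 166) and 60 for HTH (51.2 to 70). The intervals of LTP1 and PDF1 overlap in the p2 bulk well, so their order is not settled there. In the p1 bulk well HTH, ABCG11, BDG and CER6 lay between 43.1 and 50.3 with overlapping intervals. In the p2 bulk well HTH at 60 and LACS2 at 57.3 overlapped in the same way. ACR4 was last in both bulk wells, with 2.47 in p1 (1.44 to 3.96) and 4.74 in p2 (2.93 to 7.25), and in the summed p2 nuclei, with 5.13, but at rank 7 in the summed p1 nuclei, with 17.3, most of it from replicate 42.

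Each bulk well was then set against the sum of its Smart-seq2 nuclei, p1 with p1 and p2 with p2. No member differed by over 2-fold the same way both times, whereas 5.74% of 16894 genes were higher and 6.3% lower in bulk in both. In p1 alone 2 of 10 members were past 2-fold either way, against 47.3% of genes. ABCG11 had 150 CPM in the p1 bulk well and 54.1 CPM in summed p1 nuclei, a log2 ratio of 1.47 (1.30 to 1.64), and ACR4 had 8.74 and 61 CPM, a log2 ratio of -2.80 (-3.58 to -2.12). Without replicate 42 the ACR4 ratio was -0.66. In p2 alone 2 of 10 members were past 2-fold, against 43.5% of genes. LACS2 had 164 CPM in the p2 bulk well and 68.5 CPM in summed p2 nuclei, a log2 ratio of 1.26 (1.05 to 1.47), and CER6 had 63.8 and 136 CPM, a log2 ratio of -1.09 (-1.42 to -0.77), which was -0.95 without p2 replicate 84. PDF1 and LTP1 had log2 ratios between -0.32 and 0.21 in p1 and p2. Without replicate 42 the p1 ratio of PDF1, -0.32, was 0.24, and without replicate 60 that of LCR, 0.97, was 1.36, past 2-fold, while with mean CPM over nuclei of at least 50000 counts it was 0.26. Leaving out the top nucleus of each gene takes counts from the nuclei side only. It moved the median ratio of all genes by 0.805 in p1 and 0.634 in p2. With all nuclei kept, the median of the members was 0.27 in p1 and -0.19 in p2, beside 0.01 and 0.00 over all genes. In bulk wells, fewer nuclei with a gene and less RNA per nucleus cannot be told apart.

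Smart-seq3 and Smart-seq2 nuclei were compared as sums, within p1 and within p2. No member was higher past 2-fold in Smart-seq3 in both p1 and p2, beside 4.95% of 16971 genes, and 5 members were lower in both, PDF1, HTH, ACR4, ABCG11 and LACS2, beside 31.3%. HTH was the member with the lowest ratios. Smart-seq3 sums held 2 counts of HTH in p1 and 2 in p2, against 14796 and 7950 counts in the Smart-seq2 sums, which gave log2 ratios of -5.61 (-8.66 to -3.76) in p1 and -9.18 (-12.2 to -7.33) in p2. PDF1 had 56.5 CPM in p1 Smart-seq3 and 1433 CPM in p1 Smart-seq2, a log2 ratio of -4.67 (-5.09 to -4.27), and 769 CPM in p2 Smart-seq3 and 1893 CPM in p2 Smart-seq2, a log2 ratio of -1.30 (-1.34 to -1.26). In p1, replicate 7 gave 42 of the 50 Smart-seq3 counts of PDF1 (84%), and without it and Smart-seq2 replicate 42 the ratio was -6.38. FDH had log2 ratios of -0.49 in p1 and 0.09 in p2, the p1 value being -1.58 without its top nuclei and both positive with TMM scaling (0.14 and 0.51).

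Single nuclei carried much of these Smart-seq3 sums. In p2, replicate 12 gave all 726 BDG counts and 61.2% of PDF1, and replicate 6 gave all 176 ABCG11 counts, 91.3% of LCR and 68.4% of CER6. Replicate 6 held 6 members, the most of any Smart-seq3 nucleus. LCR had 103 CPM in summed p2 Smart-seq3 and 44.8 CPM in summed p2 Smart-seq2 nuclei, a log2 ratio of 1.20 (1.06 to 1.34), which became -1.63 without replicate 6 and Smart-seq2 replicate 18. With the top nucleus of each gene left out on both sides, the lower members were PDF1, HTH, LCR and LACS2, beside 32.1% of 5169 genes. BDG and ABCG11 then had no p2 value left. CER6 had a log2 ratio of 0.74, and -0.62 without replicate 6 and Smart-seq2 replicate 84. LTP1 stayed higher in p2 Smart-seq3 at 2946 CPM, against 1213 CPM in p2 Smart-seq2, a log2 ratio of 1.28 that was 0.83 without its top nuclei, replicates 9 and 55. Past 2-fold either way were 8 members in p1, beside 77.7% of genes, and 7 members in p2, beside 80.6%. The member median was -2.51 in p1 and -0.60 in p2, beside -1.26 and -2.36 over all genes, and in p2 it was 0.03 with median-of-ratios scaling, which moved the median of all genes by 0.91 in p1 and 0.60 in p2.

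Between the summed Smart-seq2 nuclei, ACR4 was the only member past 2-fold, with 61 CPM in p1 and 18.1 CPM in p2, a log2 ratio of 1.75 (1.64 to 1.86). Over all 19882 genes, 24.8% were higher and 31.2% lower in p1. Without p1 replicate 42 and p2 replicate 3, the ACR4 ratio was -0.092. The other 9 members were lower in p1, from -0.15 for LTP1 and BDG to -0.88 for HTH, with a median over the 10 of -0.52 beside -0.10 over all genes. PDF1 had 1433 CPM in p1 and 1893 CPM in p2, a log2 ratio of -0.40 (-0.41 to -0.39), although more p1 nuclei held it. CER6 had 83.1 CPM in p1 and 136 CPM in p2, a log2 ratio of -0.71 that was -1.02, past 2-fold, without p1 replicate 39 and p2 replicate 84. Leaving out the top nuclei of each gene moved the median of all genes by -0.178.

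**Figure D3:**
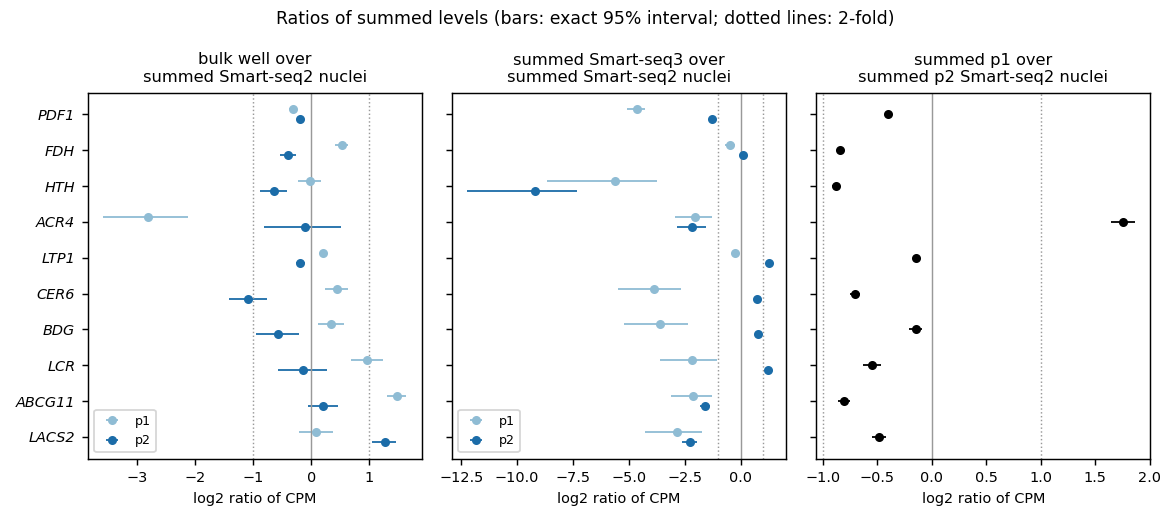
Log2 ratios of CPM are given for each gene in 3 comparisons, bulk over summed Smart-seq2 nuclei and Smart-seq3 sums over Smart-seq2 sums (p1 light, p2 dark) and summed p1 over summed p2 Smart-seq2 nuclei (black). Bars are exact 95% intervals and dotted lines mark 2-fold. HTH at -5.61 and -9.18 lies farthest left in the Smart-seq3 comparison, and ACR4 at 1.75 alone lies beyond 2-fold in the p1 over p2 comparison.

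How many members a nucleus held varied widely. The median was 0.5 in p1 (0 to 3) and 2.5 in p2 Smart-seq3 nuclei (1 to 6), and 3 in p1 (0 to 8) and 2 in p2 Smart-seq2 nuclei (0 to 9). No nucleus held all 10. At least 5 members were held by 35 of 93 p1 nuclei (37.6%) and 30 of 93 p2 nuclei (32.3%), and all of these nuclei had at least 50000 counts. Of the p1 nuclei 10 held none and 13 held 1, which was LTP1 in 9 and PDF1 in 4. Of the p2 nuclei 11 held none and 20 held 1, which was LTP1 in 15, PDF1 in 3 and HTH in 2. In nuclei of at least 50000 counts the median was 5 members in p1 and 3 in p2. The fullest nuclei were p2 replicates 5, 11, 33 and 49 with 9 members each, at totals from 585364 to 764745 counts. ACR4 was the missing gene in replicates 11 and 49, ABCG11 in 5 and LACS2 in 33.

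PDF1 and FDH were often found together. Both were held by 44 p1 and 28 p2 nuclei, 72 in all, where 52.4 would share them if they were independent within p1 and p2. Of the 46 p1 nuclei with FDH, 44 also held PDF1 (95.7%, 85.2 to 99.5%), and of the 34 p2 nuclei with FDH, 28 did (82.4%, 65.5 to 93.2%). Of the nuclei with FDH, 42 in p1 and 34 in p2 had at least 50000 counts. Among all nuclei of that depth, 94.7% held PDF1 in p1 and 53.1% in p2, so the p1 share with FDH is close to that of all deep p1 nuclei. Most nuclei with LACS2 held both PDF1 and FDH: FDH was held by 14 of the 17 p1 nuclei with LACS2 and 19 of 21 p2 nuclei, and PDF1 by 17 and 20. FDH was in 73.7% of all p1 and 42% of all p2 nuclei of at least 50000 counts. All 45 pairs of members shared more nuclei than under independence, 44 in nuclei of at least 50000 counts, the exception being ACR4 with LACS2 (4 nuclei, 4.12 under independence). From 1 count, in the 82 p1 and 83 p2 nuclei that reached 4200 counts and were thinned to that number, 38 pairs did. Many pairs with genes that are no members also exceeded independence over all nuclei. FDH shared 30 nuclei with LTP2 (17.8 under independence) and 19 with SUC2 (11.8), and PDF1 shared 22 with SUC2 (17.2) and 31 with STM (26.8). Not all such pairs did: BDG shared 7 with STM (9.27). In nuclei of at least 50000 counts, FDH with SUC2 shared 18 (14.8 under independence) and PDF1 with SUC2 21 (18.9), whereas PDF1 with FDH shared 68 (57.8). The part of depth in these counts was not tested, and the share over all pairs of genes is not given here.

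Correlations of levels over nuclei of at least 50000 counts were stronger in p2. These are descriptions over nuclei of 1 group that differ in depth, with no test. Spearman's rho had a median of 0.15 over the 45 pairs in p1 (57 nuclei) and 0.27 in p2 (81 nuclei), and was above 0 for 37 pairs in p1 and 45 in p2. The share over all pairs of genes is not given here, for these counts or those below, so none can be called particular to the members. PDF1 with FDH had 0.60 in p1 and 0.63 in p2. FDH with LACS2 had -0.02 in p1 and 0.65 in p2, PDF1 with LACS2 0.22 and 0.63, and PDF1 with HTH 0.10 and 0.53. All pairs among PDF1, FDH, HTH, BDG and LACS2 were at 0.33 or above in p2. Over the 45 pairs, 2 were above 0.3 in both p1 and p2, PDF1 with FDH and FDH with HTH (0.35 in p1 and 0.47 in p2). LTP1 with CER6 went the other way, with 0.41 in p1 and 0.21 in p2. The rho between each member and the sum of the other 9 ran from 0.09 for BDG to 0.57 for FDH in p1 and from 0.26 for LCR to 0.64 for LACS2 in p2.

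**Figure D4:**
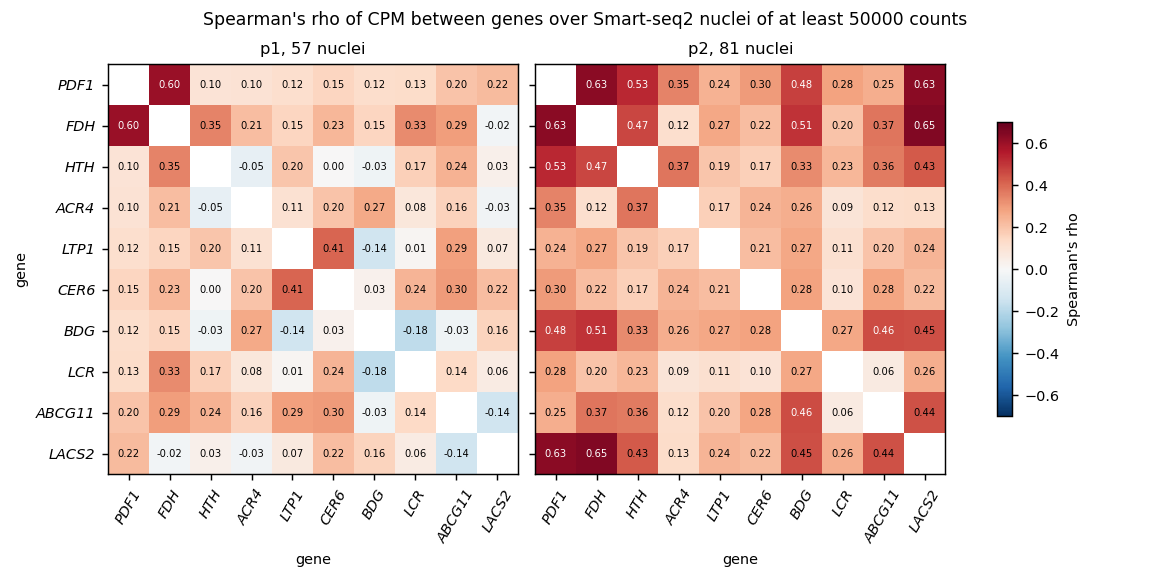
Each cell gives Spearman's rho of CPM between a pair of genes, over 57 p1 nuclei (left) and 81 p2 nuclei (right) of at least 50000 counts. PDF1 with FDH is high in both panels at 0.60 and 0.63, and LACS2 has 0.63 and 0.65 with them in the p2 panel, against 0.22 and -0.02 in the p1 panel.

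ATML1, the L1 homeodomain factor, was held by 29 p1 and 30 p2 Smart-seq2 nuclei. Among p2 nuclei of at least 50000 counts, 27 of 30 with ATML1 held PDF1 (90%, 73.5 to 97.9%), against 16 of 51 without it (31.4%, 19.1 to 45.9%). FDH was held by 73.3% of nuclei with ATML1 and 23.5% without it, HTH by 66.7% and 23.5%, BDG by 60% and 3.92%, LACS2 by 53.3% and 9.8%, and ABCG11 by 40% and 3.92%. For these 6 members the intervals with and without ATML1 do not overlap in p2, and for CER6 (53.3% and 21.6%), ACR4, LCR and LTP1 they do. In p1, by contrast, the intervals overlap for every member. PDF1 was held by 92.9% of p1 nuclei with ATML1 and 96.6% without it, FDH by 82.1% and 65.5%, and CER6, with the widest gap, by 60.7% and 31%. Median totals of nuclei with and without ATML1 were 2035061 and 2013537 counts in p1 and 524332.5 and 360867 in p2. The part of depth in the p2 gap was not tested. The share of all genes with intervals apart in this way is not given here, so the gap cannot be called particular to the members.

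**Figure D5:**
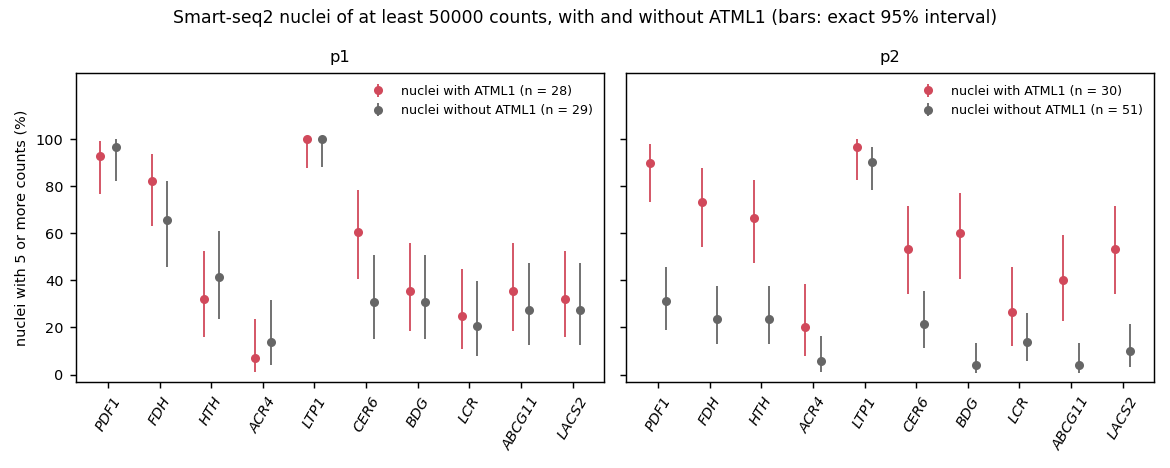
The share of nuclei with 5 or more counts of each gene is given in percent for nuclei with ATML1 (red) and without it (grey), for p1 (left) and p2 (right) Smart-seq2 nuclei of at least 50000 counts, with exact 95% intervals. In p2 the intervals of PDF1, FDH, HTH, BDG, ABCG11 and LACS2 are apart, and in p1 none are. The share of all genes with intervals apart is not given here.

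Nuclei with CLV3, the marker of the labelled cell type, mostly held members too, as did other nuclei of at least 50000 counts. The 15 p1 nuclei with CLV3 held 1 to 8 members (median 5), the 5 p2 Smart-seq2 nuclei 2 to 6 (median 3) and the 3 p2 Smart-seq3 nuclei 3 to 4. Over all Smart-seq2 nuclei of at least 50000 counts the medians were also 5 in p1 and 3 in p2. LTP1 was in all 20 Smart-seq2 nuclei with CLV3. PDF1 was in 13 of 15 in p1 (86.7%, 59.5 to 98.3%) and 2 of 5 in p2, and FDH in 10 of 15 and 0 of 5. Among Smart-seq2 nuclei of at least 50000 counts without CLV3, PDF1 was in 97.6% in p1 and 53.9% in p2. In the same nuclei FDH was in 76.2% and 44.7%, LTP1 in 100% and 92.1%, and HTH in 35.7% and 36.8%. HTH was in 6 of 15 p1 and 4 of 5 p2 nuclei with CLV3, at 286, 70.8, 18 and 16.3 CPM in p2. The p1 nucleus with the most CLV3 counts, 2151 in replicate 1, held LTP1 at 2134 CPM and none of the other 9, with PDF1 at 1.09 CPM. Every p2 nucleus with CLV3 also held mCherry, as did 12 of the 15 in p1.

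Other genes of the wax and cutin pathways had median shares below the 21.5% in p1 and 25.8% in p2 of the members, and the regulators had lower ones, 9.68% in p1 and 15.1% in p2. Of 13 wax genes, 10 were held by at least 5 Smart-seq2 nuclei, with median shares of 18.3% in p1 and 16.1% in p2 over all 13. LTPG1, a membrane-anchored lipid carrier, led with 48 p1 and 44 p2 nuclei, before CER3 of alkane synthesis (17 and 37) and the synthetase LACS1 (20 and 29). Of 11 cutin genes, 8 were held by at least 5 nuclei, with medians of 20.4% in p1 and 18.3% in p2, led by ACC1, which supplies malonyl-CoA (40 and 34), the lipase LTL1 (35 and 26) and the acyltransferase DCR (27 and 30). Of 17 regulators, 12 were held by at least 5 nuclei, led by the calpain DEK1 (27 and 57), the homeodomain gene ANL2 (32 and 35) and ATML1. In summed p1 over summed p2 Smart-seq2 nuclei, 2 of 11 wax genes with enough counts were higher and 5 lower past 2-fold, 1 and 3 of 10 cutin genes, and 2 and 4 of 13 regulators, where 24.8% and 31.2% of all genes were. ATML1 was among the lower, with a log2 ratio of -1.38.

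Genes of later epidermal cell types were rare. The median share over 10 stomatal and trichome genes was 2.69% in p1 and 0% in p2. GL2, which acts in trichomes, was held by 7 p1 and 12 p2 nuclei, SPCH, which starts the stomatal lineage, by 7 and 0, and EPF2, a peptide of that lineage, by 6 and 0. Of 6 genes of seeds, pollen and root hairs, OLEO1 was held by 3 p1 and 1 p2 nuclei and the other 5 by none. Vascular SUC2 was held by 12 p1 and 16 p2 nuclei, ATHB8 by 10 and 4, and PXY by 3 and 4. In the meristem list KNAT1 was held by 25 p1 and 32 p2 nuclei and STM by 18 and 26. Of the mesophyll list, RBCS1A and CAB1 (93 and 87 each) were in more nuclei than any member, and CA1 was in 77 and 62.

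The 10 other genes whose levels were most like the summed level of the members were found among 7724 nuclear genes by the mean of Spearman's rho in p1 and p2. They were AT5G45670 (0.32 in p1 and 0.74 in p2), the fatty acid reductase gene FAR1 (0.45 and 0.61), the drought-responsive gene RD22 (0.56 and 0.43), AT4G29030 (0.33 and 0.64), CAD9 of the cinnamyl alcohol dehydrogenase family (0.37 and 0.57), PEL3 (0.28 and 0.64), LTPG1 (0.21 and 0.68), LTL1 (0.26 and 0.62), AT3G05600 (0.47 and 0.41) and AT2G27385 (0.18 and 0.65). PEL3 is the RefSeq symbol of DCR, so it and LTL1 stand in the cutin list and LTPG1 in the wax list. The median of the mean rho over all 7724 genes was -0.02. PDF1 and LTP1 made up a median of 79.2% of the summed level in p1 nuclei and 81.4% in p2, so likeness to the sum is mostly likeness to this pair. The summed level had a rho of -0.13 in p1 and 0.00 in p2 with the total of the nucleus, and of 0.12 and 0.20 with its share of plastid and mitochondrial counts.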

How the data were processed

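The values the authors deposited are estimated counts for each feature and well, of which 9.47% of the values above 0 on genes were not whole within 1e-06, and these were rounded. The submitters' processing notes name TAIR10 and DESeq2 without a role, and the aligner and counting program are not given in the sources used here. Whether molecular identifiers were counted is not given there either, so counts need not be independent molecules. Levels are CPM of all counts on genes, or those per kilobase of exon from the RefSeq annotation TAIR10.1, which matched 28929 of 29696 gene identifiers (97.4%) and whose nuclear chromosomes are those of TAIR10. The table has no coordinates.

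The members and the gene lists were chosen with earlier results of these data known. Named were all 10 members, the 3 genes of every other list held by most Smart-seq2 nuclei, and CLV3, WUS, ATML1 and mCherry. Likeness was taken over nuclei of at least 50000 counts, over genes that reached 5 counts in 10% or more of these nuclei in p1 and in p2.

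Shares carry exact Clopper-Pearson intervals, sums exact Poisson intervals and ratios exact binomial intervals, all at 95%. A nuclear gene entered a ratio from 50 counts in the libraries together, and a count of 0 entered as 3. The alternatives were 1 count in place of 5, thinning of nuclei that reached 4200 counts to that number with 1 count in place of 5, deep nuclei alone, 4-fold, TMM scaling by edgeR 4.0.16, median-of-ratios scaling, nuclear library sizes, mean CPM, a minimum of 10 counts, unrounded values, and sums without the top nucleus of a gene. The calculations were tested on simulated data, in Python 3.11.15 with SciPy 1.17.1.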

Additional observations from a re-analysis of the deposited data

Results flagged for a closer look

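In the 8 p1 Smart-seq3 nuclei, the highest nucleus of 3 genes, of 10 examined, stood apart by its gap to the next one relative to the whole range, a rule that by chance alone picks about 1 in 20 sets. PDF1 was at 207 CPM in replicate 7 (42 counts), with 97.4 CPM in the next nucleus. FDH was at 960 CPM in replicate 8 (100 counts), with 246 CPM in the next. LACS2 was at 88 CPM in replicate 2 and 34.9 CPM in the next, but on 3 and 2 counts. Of the 8 nuclei, 3 had no count of PDF1, 2 none of FDH and 5 none of LACS2. The rate of 1 in 20 was not checked for sets with so many zeros, so the 3 of 10 cannot be called an excess.

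Some ratios had opposite directions in p1 and p2, beyond counting error in each. The difference between p1 and p2 was itself not tested. For bulk over summed Smart-seq2 nuclei, the log2 ratio in p1 minus that in p2 was 0.92 for FDH (0.52 in p1 and -0.40 in p2), 0.39 for LTP1 (0.21 and -0.18), 1.52 for CER6 (0.44 and -1.09) and 0.91 for BDG (0.34 and -0.57). For Smart-seq3 sums over Smart-seq2 sums it was -0.59 for FDH (-0.49 and 0.09), -1.53 for LTP1 (-0.25 and 1.28), -4.62 for CER6 (-3.88 and 0.74), -4.34 for BDG (-3.60 and 0.75) and -3.37 for LCR (-2.17 and 1.20). With TMM scaling the Smart-seq3 ratios had 1 sign for FDH (0.14 in p1 and 0.51 in p2) and for LTP1 (0.39 and 1.70), as with median-of-ratios scaling (0.55 and 0.73 for FDH, 0.79 and 1.92 for LTP1). With nuclear library sizes FDH was at -0.61 and -0.05, and with mean CPM over nuclei of at least 50000 counts at -0.38 and -0.23. The p2 Smart-seq3 values of CER6, BDG and LCR rest on replicates 6 and 12, and those of CER6 and LCR were -0.62 and -1.63 without their top nuclei.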

How the results depend on the processing

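With 1 count in place of 5, the median share over the members was 56.2% in p1 Smart-seq3 and 47.3% in p1 Smart-seq2 nuclei, and the median number of members per nucleus was 5 in p1 and 4 in p2 Smart-seq3 and 6 in p1 Smart-seq2 nuclei. In nuclei of at least 50000 counts the p1 Smart-seq2 share was 35.1% and the number of members 5, and the p1 Smart-seq3 number was 1. With nuclei of at least 4200 counts thinned to that number and 1 count in place of 5, the p1 Smart-seq3 number was 0, and the medians of the other groups moved by less than their spread, while 9 of 40 shares of single members moved beyond their intervals. The 5 members lower in Smart-seq3 became 3 at 4-fold (HTH, ACR4 and LACS2), 3 with median-of-ratios scaling (the same 3) and 3 with mean CPM over deep nuclei (PDF1, HTH and ACR4). Of all genes, 19.3% were lower at 4-fold, 20.7% with median-of-ratios scaling and 27.9% with mean CPM. The 1 member higher in p1, ACR4, became 0 at 4-fold and 0 without top nuclei, where 1 member, CER6, was lower. Of all genes, 11.8% were higher in p1 at 4-fold, and without top nuclei 21.2% were higher and 34.8% lower. Without top nuclei, the log2 ratio of LCR in p2 Smart-seq3 over Smart-seq2 was -1.63 and that of ACR4 in p1 over p2 was -0.092. TMM moved the median bulk ratio of all genes by -0.16 in p1 and -0.22 in p2. The pair counts thinned to 4200 counts were added after seeing the data. Of the 10 genes most like the members, 8 stayed with Pearson's r of log2(CPM + 1). Without either negative control replicate, 1 to 2 members had counts there. No paired analysis was possible because no comparison of groups comes from a test. The main limits are 1 sample per group, shallow wells, and 8 and 12 Smart-seq3 nuclei. The cause of each shift was not tested, except that leaving out a nucleus removes its counts by construction.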
